A study of Homo sapiens with 8 samples.

Results

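Guides against SETD1A after residue 300 and up to residue 700 of the protein were followed in a pooled growth screen. Guides were taken by name, and the table calls SETD1A by its synonym KMT2F. A guide belonged to the stretch when the number at the end of its name lay above 900 and no higher than 2100. That number was read as a nucleotide of the coding sequence, with 3 nucleotides per residue, because the numbers for SETD1A run from 4 to 5124, which is the length of 1708 codons with the stop codon. No key to these numbers comes with the table, and the residues below all rest on that reading. By this rule 137 guides belonged to the stretch, of 628 against SETD1A and 5995 in the pool. The rule itself holds no measured value, but the stretch was chosen with earlier results of these data known.

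The pool was carried by KPL-1, a line of human breast cancer cells, with a Cas9 induced by doxycycline (iCas9). Guides were counted in 1 library at day 0 of doxycycline, labelled wild type, and in 1 library at day 14, labelled as a knockout of functional domains. Both libraries come from the same line. The sources used here do not give whether it was 1 clone, or how many cells carried each guide. For SETD1A, the design asked which of its domains the cells need for growth. The pool also held guides against SETD1B, KMT2C, KMT2D and BOD1L1.

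SETD1A is a member of the KMT2 family of histone H3 lysine methyltransferases and works in a chromatin complex with WDR5, RBBP5, ASH2L and DPY30. Its N-terminus holds an RNA recognition motif, its catalytic SET domain lies at the C-terminus, and a region between them, called FLOS, has been described as needed for growth apart from the enzyme activity. The stretch described here lies between the RNA recognition motif and FLOS. In a tiling screen, Cas9 cuts at each guide's site and repair leaves small insertions or deletions. A shift of the reading frame can disrupt the protein from any site in the body of the gene, whereas in-frame repair removes or adds only a few residues. Cells whose growth is slowed leave fewer copies of their guide in the later library. Guide sequences and strands were not analysed here, so guides are given by name and number.

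The libraries held 10145466 reads at day 0 and 10255022 at day 14. The 137 guides had a median of 1641 reads at day 0, from 63 to 5095, and of 1124 at day 14, from 66 to 6823, so none was lost from the pool. All 137 had at least 30 reads at day 0, the minimum applied to the pool. Neither day was sequenced in replicate, and guides are not replicates of a condition, so no p-value is given. The interval of a single guide is the exact Clopper-Pearson 95% interval of its reads, and covers counting error only, since no molecular identifiers were counted. The median half-width of these intervals was 0.11 log2.

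Guides of the stretch lost ground against the control guides. They took 2.48% of all reads at day 0 (251823 reads, exact 95% interval 2.47% to 2.49%) and 1.96% at day 14 (201054 reads, 1.95% to 1.97%). Both intervals treat each read as a separate draw. They cover counting error only, not the spread between guides or cultures. The 200 guides named HGLibA, read here as non-targeting controls from the naming of a genome-wide library, went the other way, from 3.17% to 5.49% of reads. The change of a guide is given below as the log2 ratio of its CPM (its reads scaled to the library's total) plus 1, at day 14 over day 0, minus the median of the HGLibA guides. A change of -1 therefore means that a guide kept 1 part in 2 of its share relative to those controls.

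The median change of the 137 guides was -1.36 log2, which is 0.39 times the level of the HGLibA median. The middle of the distribution, between the quartiles, ran from -1.83 to -0.70 log2, and the extremes were -3.77 and 0.59. An exact 95% interval of the median, which covers the spread between guides in these libraries and not that between cultures, ran from -1.49 to -1.14 log2. A change below 0 was measured for 131 guides (95.6%), beside 86.2% of the pool and 89.2% of SETD1A guides outside the stretch. Of the 131, 129 had a counting interval wholly below 0. Of the 6 guides with a change above 0, 5 had an interval wholly above 0.

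By the rule of a change at or below -1 log2, 90 of the 137 guides (65.7%) were called lower, where 46.7% of all 5991 guides tested in the pool were. For the other tiled genes, the share was 65.7% for KMT2D, 40.5% for KMT2C, 32% for BOD1L1 and 7.66% for SETD1B. None of the 137 rose by 1 log2 or more, against 0.351% of the pool. By a rule set on the controls, 102 of the 137 (74.5%) fell below the 5th percentile of HGLibA guides, which was -0.74 log2, beside 56.4% of the pool. None passed the 95th percentile of HGLibA guides, at 0.77 log2, against 0.935% of the pool. The lowest HGLibA guide stood at -1.88 log2, and 33 of the 137 (24.1%) lay below it, beside 19.1% of the pool. So the stretch and the controls overlapped, and most of its guides lay in the lower tail of the controls or under it. The pool is made mostly of guides against KMT2-family genes, and the median change of all its guides was -0.92 log2.

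Most guides against AAVS1, a locus outside the KMT2-family genes, were low as well. AAVS1 is commonly used as a control for the cut itself, whereas a non-targeting guide makes no cut. Its 5 guides changed by -1.46, -1.30, -1.01, -0.74 and 0.18 log2, with a median of -1.01, and 3 of them were at or below -1. These values overlap those of the SETD1A stretch, whose median was 0.34 log2 lower, and 5 guides at 1 locus give that median little precision. The part that cutting alone has in the fall of the SETD1A guides was not tested.

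Guides against genes every dividing cell needs fell further. The 25 guides against PCNA, POLR2A, POLR2L, RPA3 and SF3B3, which act in replication, transcription and splicing, had a median of -3.63 log2, and 20 of them (80%) were at or below -2. In the SETD1A stretch 24 of 137 (17.5%) were at or below -2, beside 16.6% of the pool.

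The deepest loss was that of KMT2F_1851, at residue 617, which went from 1458 reads to 171, a change of -3.77 log2 (counting interval -4.09 to -3.62). KMT2F_941 at residue 314 went from 430 to 66 reads (-3.29 log2), and KMT2F_1429 at residue 477 from 652 to 119 (-3.11 log2). These 3 sites lie far from one another along the stretch. Next came KMT2F_1561 at residue 521, from 1641 to 372 reads (-2.87 log2), KMT2F_1659 at residue 553, from 2120 to 485 (-2.86 log2), and KMT2F_1765 at residue 589, from 1874 to 430 (-2.85 log2). The other 4 of the 10 lowest were KMT2F_1932 at residue 644 (-2.63 log2), KMT2F_1907 at residue 636 (-2.58), KMT2F_1990 at residue 664 (-2.54) and KMT2F_1680 at residue 560 (-2.52). KMT2F_1907 was also the guide with the most reads at day 0 and went from 5095 to 1430 reads.

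At the other end stood guides that kept pace with the controls or gained on them. KMT2F_1638 at residue 546 went from 1155 to 2947 reads, 0.59 log2 (counting interval 0.50 to 0.69). KMT2F_1356 at residue 452 went from 521 to 1303 reads (0.55 log2), and KMT2F_1904 at residue 635 from 1752 to 4163 (0.49 log2). KMT2F_1153 at residue 385 (969 to 1890 reads) stood at 0.20 and KMT2F_1162 at residue 388 (3865 to 6823 reads) at 0.06 log2. All 5 values lie below the 95th percentile of the HGLibA guides.

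Loss was spread along the stretch, without a marked low point in windows of 50 residues counted from its start. In each of the 8 windows of 50 residues the median was at or below -1 log2, and the medians ran from -1.57 to -1.07 log2. The first window, up to residue 350, had the lowest median, from only 6 guides, and the window up to residue 400 the highest, from 19. Between them in rank came the windows that end at residue 500, at -1.44 log2 (13 guides), at 700, with -1.38 (18), at 550, with -1.37 (26), at 450, with -1.37 (13), at 650, with -1.34 (20), and at 600, with -1.16 (22). The difference between the highest and the lowest window, 0.50 log2, was smaller than the range of guides within any one window, which was 1.93 log2 or more. The windows held 2.97% of the sum of squares of the change between guides. Across the 137 guides, residue number and change had a Pearson r of -0.01 and a Spearman rho of -0.01, as a description over points that share both libraries.

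With windows shifted by 25 residues, the medians ran from -1.72 to -1.07 log2. The lowest was that of residues 476 to 525, with 17 of 19 guides at or below -1. In the whole stretch 65.7% of guides were, and in the pool 46.7%. The shifted windows on either side had medians of -1.23 and -1.14 log2. The longest row of neighbouring guides all at or below -1 lay in the window of residues 476 to 525. Its 16 guides, in order from nucleotide 1429 (residue 477) to 1565 (residue 522), changed by -3.11 to -1.04 log2. This window and this row were picked as extremes of these same data and are no separate support for a low point. Directly after the row, 2 of the 3 guides at residue 525 stayed near the controls, with KMT2F_1573 at -0.26 and KMT2F_1574 at -0.05 log2. KMT2F_1575, at the same residue, stood at -1.54. The 16 members with the lowest numbers, from residue 307 to 384, were all below the 5th percentile of the controls, at -3.29 to -0.76 log2. Guides above -1 did not form long rows, with at most 4 in order, such as those from nucleotide 1160 to 1165.

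The 6 guides up to residue 350, in the window with the lowest median, were KMT2F_920 (804 reads at day 0 and 421 at day 14, -1.67 log2), KMT2F_928 (1364 and 1279, -0.85), KMT2F_935 (1280 and 476, -2.16), KMT2F_938 (810 and 491, -1.47), KMT2F_941 (above) and KMT2F_970 (3404 and 3026, -0.93). All 6 were below the 5th percentile of the controls and 4 were at or below -1. After KMT2F_970 came the longest gap without a guide, 93 nucleotides up to number 1063, from residue 324 to 355, so nothing can be read for those residues.

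The next window, up to residue 400, with the highest median, mixed guides of very different change. Its first 7 guides, at residues 355 to 380, lay below the 5th percentile of the controls: KMT2F_1063 at -1.62, KMT2F_1066 at -1.15, KMT2F_1103 at -1.58, KMT2F_1104 at -0.76, KMT2F_1113 at -1.01, KMT2F_1133 at -1.61 and KMT2F_1139 at -2.34 log2. From residue 383 on, guides of little and of strong change lay close together. KMT2F_1147 stood at -0.98, KMT2F_1151 at -1.07, KMT2F_1152 at -2.07, KMT2F_1153 at 0.20 and KMT2F_1155 at -1.26 log2. KMT2F_1160 stood at -0.92, KMT2F_1161 at -0.51 and KMT2F_1162 at 0.06 log2. The 2 guides named KMT2F_1165 stood at -0.88 and -1.42, KMT2F_1175 at -1.74 and KMT2F_1180 at -0.49 log2. Of the 19 guides in this window, 11 were at or below -1 and 4 were at or above the 5th percentile of the controls.

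Guides within the range of the controls had low neighbours about as often as other members did. At or above the 5th percentile of HGLibA guides were 35 of the 137, and 32 of these (91.4%) had another member within 10 nucleotides that was below it, as 126 of all 137 (92.0%) had. Of the 35, 8 lay among the 51 guides up to residue 500 (15.7%) and 27 among the 86 guides after it (31.4%). Both shares were below that of the pool, where 43.6% of guides were at or above this limit. Both parts of the stretch had nearly the same median, at -1.36 and -1.35 log2. The median of the 35 was 1532 reads at day 0, against 1644.5 for the other 102, and the part of depth was not tested.

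Some close neighbours differed widely. KMT2F_1851, the deepest loss, lies 5 nucleotides from KMT2F_1856, which went from 1320 to 1901 reads (-0.23 log2), a difference of 3.54 log2. KMT2F_1852, between these guides, was low as well, at -1.73 log2. KMT2F_1904 (0.49 log2) and KMT2F_1907 (-2.58 log2) lie 3 nucleotides apart and differed by 3.07 log2. KMT2F_1907 also differed by 2.64 log2 from KMT2F_1912, 5 nucleotides on, which went from 1532 to 2693 reads (0.05 log2). These differences are far larger than the counting error of either guide. Other neighbours gave nearly the same value: KMT2F_1617 and KMT2F_1627 stood at -0.39 log2 each, KMT2F_1507 and KMT2F_1516 at -1.37 and -1.39, and KMT2F_1271 and KMT2F_1272 at -1.38 and -1.36. KMT2F_1624, which lies between KMT2F_1617 and KMT2F_1627, stood at -0.75 log2.

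Over all pairs, the distance between guides made little difference. Pairs of members within 3 nucleotides differed by a median of 0.84 log2 (87 pairs), pairs further apart than that and up to 10 by 0.68 (143 pairs) and pairs more than 300 apart by 0.77 (4946 pairs), against 0.78 over all 9316 pairs. The change of a guide and that of the next one along the gene had a Pearson r of -0.00065 over 136 pairs, as a description. Because 133 of the 137 have another member within 10 nucleotides, many guides can share part of a target site, and they do not count as independent looks at a residue.

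Rows of guides at the same or consecutive numbers show this spread most directly. There were 12 such rows of at least 3 guides, 38 guides in all, and 8 of the 12 had guides on both sides of the control 5th percentile. Across the stretch, 74.5% of members lay below that limit and 25.5% did not. How many rows would lie on both sides from these shares alone was not tested. The rows at numbers 1263 to 1264 and 1864 to 1865 hold 3 guides only because they include guides that share a name. The latter lies on both sides only through the KMT2F_1865 guide with 63 reads at day 0 (-0.06 log2). At residue 546, KMT2F_1636 stood at -1.65, KMT2F_1637 at -0.60 and KMT2F_1638 at 0.59 log2, so that 3 guides naming the same residue covered 2.24 log2. At residues 644 and 645, KMT2F_1932 stood at -2.63, KMT2F_1933 at -2.27, KMT2F_1934 at -0.33 and KMT2F_1935 at -0.67 log2. At residues 668 and 669, KMT2F_2003 stood at -1.19, KMT2F_2004 at -1.81, KMT2F_2005 at -2.11 and KMT2F_2006 at -0.28 log2. At residues 520 and 521, all were low, with KMT2F_1559 at -1.66, KMT2F_1560 at -2.39 and KMT2F_1561 at -2.87 log2. Of the 29 residues named by 2 or more guides, 14 had all their guides below the 5th percentile of the controls, 13 had guides on both sides and 2 had none below.

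3 names occurred on 2 rows each of the table, which does not say how the guides of a pair differ. The rows of KMT2F_1165 changed by -0.88 and -1.42 log2, and those of KMT2F_1264 by -1.52 and -0.90. The rows of KMT2F_1865 stood at -0.06 log2, from 63 to 108 reads, and at -1.59 log2, from 1364 to 763 reads. The first of these is the member with the fewest reads at day 0, with a counting interval from -0.44 to 0.49 log2.

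Depth and the number's place in the codon were set beside the change. The 69 guides with at least the median of 1641 day 0 reads had a median of -1.44 log2, and the 68 with fewer had -1.18. The log2 of the day 0 reads and the change had a Pearson r of -0.04 and a Spearman rho of -0.01 across the 137 guides, and an r of 0.01 without the 2 guides farthest from the median of reads. Guides whose number leaves a remainder of 1 after division by 3 had a median of -1.41 log2 (52 guides), those with 2 had -1.38 (39) and those with 0 had -1.26 (46). Each of these 3 medians lay well inside the quartiles of the others.

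Within SETD1A the stretch had the second lowest median of 5 segments, and its quartiles lay closer together than those of the N-terminus. Guides up to residue 300, which hold the RNA recognition motif, had a median of -1.55 log2 (127 guides, quartiles -2.18 and -0.48). Those after residue 700 and up to 900, around FLOS, had -1.20 (93 guides, quartiles -1.77 and -0.42). Those from there up to residue 1400 had -0.95 (153 guides, quartiles -1.52 and -0.22), and those beyond residue 1400, with the SET domain, had -1.29 (118 guides, quartiles -1.74 and -0.72). The quartiles of every segment overlap those of the stretch. The share of guides at or below -1 log2 was 65.7% in the stretch, 66.1% before it, 54.8% from its end up to residue 900, 49% from there up to 1400 and 63.6% beyond. At or below -2, the share was 17.5% in the stretch, 30.7% in the residues before it and 16.6% in the pool. It was 16.1% from the end of the stretch up to residue 900, 13.7% from there up to 1400 and 18.6% beyond. No test compares these segments, since they share both libraries and guides are not replicates.

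Guides on either side of the limits of the stretch were as follows. Just before it, KMT2F_897 and KMT2F_899 stood at -2.73 and -1.90 log2, beside the first members KMT2F_920 and KMT2F_928 at -1.67 and -0.85. The last members, KMT2F_2061 and KMT2F_2076, stood at -1.02 and -1.15, and the next guides, KMT2F_2108 and KMT2F_2120, at -0.42 and -0.25 log2.

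Guides against the same numbered residues of the paralog SETD1B, named KMT2G in the table, hardly fell. These residues of SETD1B, which were not aligned to those of SETD1A, had a median of -0.23 log2 (172 guides, quartiles -0.51 and -0.01). Of these guides, 11 (6.4%) were at or below -1, beside 46.7% of the pool. Their quartiles do not overlap those of the SETD1A stretch, whose upper quartile was -0.70. All 744 SETD1B guides were much alike, with a median of -0.25 log2 and 7.66% at or below -1. The small change was thus not particular to these residues of SETD1B.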

How the data were processed

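The authors deposited 1 table of raw counts, the reads of each guide in the day 0 and day 14 libraries of the pool. How guides were amplified, matched and counted is not stated in any label. The tools that the submitters' processing notes list for every sample (STAR 2.6.0c, RSEM 1.3.1 and bcl2fastq 2.20.0) come with no role. The labels repeat an RNA extraction protocol for both pool libraries. The row of column totals names no guide, equals the sum of the others and was left out. The RNA libraries of the series were not used here. KMT2F and KMT2G were read as SETD1A and SETD1B from the RefSeq synonyms (GRCh38.p14 table).

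CPM used the total of all 5995 guides, a pseudocount of 1 CPM and a minimum of 30 day 0 reads, which left 5991. The median of 200 HGLibA guides, 0.74 log2 before centring, was subtracted. Single-guide intervals take no pseudocount. The calculation was tested on simulated counts, with Python 3.11.15, pandas 2.3.3 and scipy 1.17.1. Guides named singly were the 10 lowest, the 5 highest, those of the windows with the lowest and highest median, those at the ends, those with the fewest and most reads, and the close pairs that differed most and least. Others, such as guides in consecutive rows, were named after their values were seen. The members, segments and windows were chosen with earlier results of these data known. Protein features around each guide, part of the plan, were not analysed here. Guides against 1 further control locus are not reported here.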

Additional observations from a re-analysis of the deposited data

How the results depend on the processing

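No paired analysis was possible because each day has 1 library. Results turned on what the guides were centred on. The median change of the 137 guides was -0.62 log2 with no centring and -0.44 with the median of all guides subtracted. The number at or below -1 log2 was then 37 and 31, and the number of the 8 windows with a median at or below -1 was 0 in both. The count below the 5th percentile of HGLibA guides does not depend on centring and stayed at 102. It was 33 with the lowest HGLibA guide as the limit, and 24 guides were at or below -2 log2. Under other pseudocounts, read minimums, scaling to the summed HGLibA reads, summed rows of 1 name and trimmed ends, the median ran from -1.40 to -1.32 log2 and kept within the interval given for it. No SETD1A guide was named for 2 positions, so keeping such guides changed nothing. Centring shifts every guide alike; apart from it, 4 of 76 member guides recomputed moved out of their counting interval, all with a pseudocount of 5 CPM: KMT2F_1851 to -3.50, KMT2F_1429 to -2.79, KMT2F_941 to -2.78 and KMT2F_1139 to -2.13 log2. In windows of 100 residues 4 medians, and in shifted windows 7, were at or below -1 log2, which is every window made. Few reads limit single guides such as these 4 at day 14 and KMT2F_1865 at day 0, and without replicate libraries the spread between cultures is unknown.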
